A study of Arabidopsis thaliana with 8 samples.

Results

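The comparison described here set the 2 Arabidopsis thaliana lines that express a 3F-VP16 fusion, T31-5 and T43-11, against a line that expresses VP16 alone, all grown with 75 mM NaCl. Its members are 3 libraries of the 8 in the series, 1 for T31-5, 1 for T43-11 and 1 for the VP16-only line, which the labels call the empty vector control. They were chosen by line and salt level from the sample titles, and Col-0, the wild type, was left out so that the transgene background was matched. The other 5 libraries are the same 3 lines at 0 mM NaCl and Col-0 at 75 and 0 mM, and they are used below to place the differences and in alternative fits. Total RNA came from whole plants of the Col-0 wild type or of these transgenic lines. VP16 is a transcriptional activator of herpes simplex virus, used here as a fusion partner, and the labels say of both 3F-VP16 lines that the fusion induces salinity tolerance. The sources used here do not give the promoter that drives the transgenes, the age of the plants or the number of plants pooled in a library. Each line is a single line with 1 library per salt level, and the labels do not say whether libraries came from separate cultures, so the p-values below measure only the spread between these samples.

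Gene reads numbered 22820814 in T31-5, 21159862 in T43-11 and 21791327 in the VP16-only line at 75 mM, and all 8 libraries ranged from 13007480 to 22820814. Values are CPM, gene counts scaled to the total of gene reads in the library, and 3 reads, the most that a count of 0 allows, corresponded to 0.131 to 0.231 CPM. The tables carried 2 added rows named T31 and T43. At 75 mM T43 had 33.6 CPM in T43-11, 1 read in T31-5 and 0 reads in the VP16-only line. T31 had 2.94 CPM (exact 95% Poisson interval 2.28 to 3.73) in T31-5, 27.7 CPM in T43-11 and 3.12 CPM (2.42 to 3.96) in the VP16-only line. That row did not tell the library labelled T31-5 from the VP16-only library, so T31-5 below stands for the libraries with that label. Close to each other were 2 pairs of libraries, 1 across the salt levels and 1 at 0 mM. The mean chi-square per gene, which sampling noise alone puts near 1, was 1.42 between T43-11 at 75 and 0 mM and 1.44 between T31-5 and VP16-only at 0 mM. The T43-11 library at 0 mM stood near the 75 mM libraries of the other transgenic lines. Its mean chi-square was 4.35 against T31-5 and 5 against VP16-only at 75 mM, and 47.3 against VP16-only at 0 mM. Among the 3 libraries compared here it was 7.68 for T31-5 against VP16-only, 5.15 for T43-11 against VP16-only and 4.75 for T31-5 against T43-11.

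The genes at least 2-fold higher in both 3F-VP16 lines at a mean of 10 CPM include 7 extensins and 3 class III peroxidases, and some are known from root hairs. Root hairs are tubular outgrowths of single epidermal cells through which roots take up water and ions. Their walls contain extensins, rod-like hydroxyproline-rich glycoproteins that class III peroxidases cross-link at tyrosines, and are loosened by expansins and xyloglucan-modifying enzymes. In Arabidopsis the transcription factors RHD6 and RSL4 drive root hair growth genes, many of which carry a short promoter sequence, the root hair element. The genes that stood lower include several of the iron deficiency response, in which roots reduce ferric iron at the surface with FRO2, take it up through IRT1 and release coumarins made in part by CYP82C4.

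Among the 12334 genes that averaged 10 CPM or more over the 3 libraries, 15 (0.122%) were at least 2-fold higher in both 3F-VP16 lines than in the VP16-only line and 3 (0.0243%) were at least 2-fold lower in both. Each is the log2 ratio of 2 CPM values after 2 reads were added as a prior, and both lines share the same VP16-only library, so a low or high value of that 1 library enters both. The mean takes in 2 3F-VP16 libraries and 1 VP16-only library, so genes higher in the 3F-VP16 lines pass it at a lower VP16-only level. The lowest VP16-only value was 4.08 CPM among the 15 higher genes and 16.7 CPM among the 3 lower genes. The counts of 15 and 3 are thus no even comparison of directions, and at a mean of 20 CPM they were 1 and 1. The same filter enters the list counts at 10 CPM below. The 15 higher genes comprise 7 extensins, 3 class III peroxidases, the xyloglucan endotransglucosylase/hydrolase gene XTH14, AT5G04960 of the pectin methylesterase inhibitor superfamily, the glutathione S-transferase gene GSTF14, the TRAF-like gene AT3G20380 and BGL2, the pathogenesis-related beta-glucanase PR2. The 3 lower genes were ELIP2, an early light-induced protein, AT2G38240, a 2-oxoglutarate-dependent oxygenase, and CYP82C4. No gene was 1.5-fold apart from VP16-only in opposite directions in the lines (0 genes). In whole plants, fewer cells of a type and less RNA per cell cannot be told apart.

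**Figure D1:**
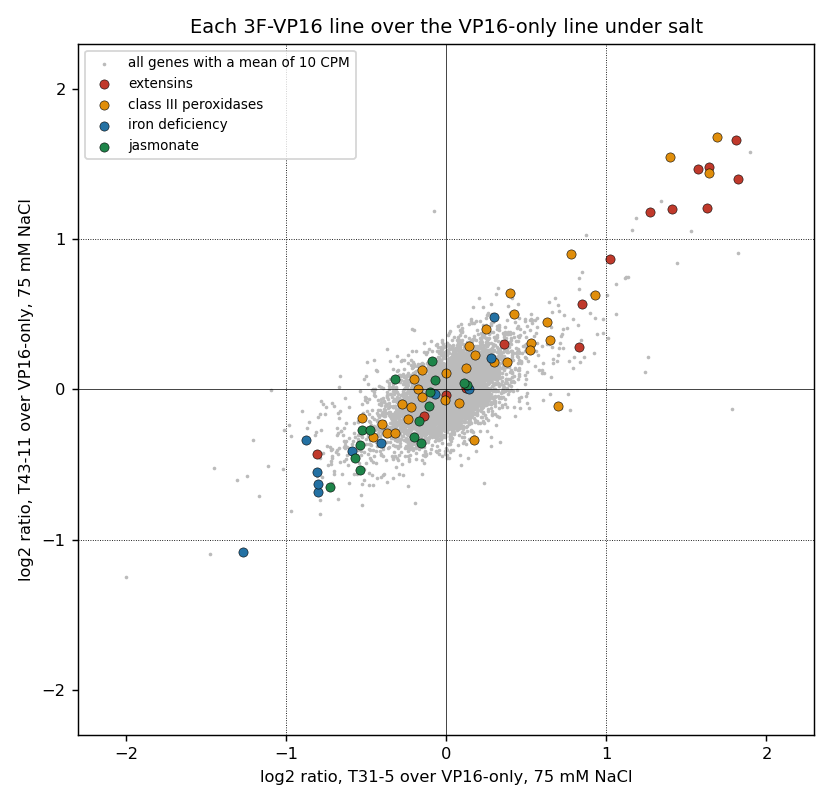
Log2 ratio of T31-5 over VP16-only (x axis) and of T43-11 over VP16-only (y axis) at 75 mM NaCl for 12334 genes, with 4 gene lists in colour and dotted lines at 2-fold. Extensins and peroxidases make up most of the 15 points at upper right, and CYP82C4 is the iron gene at lower left; the axes share the VP16-only library.

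Some promoters of the higher genes are shown because many hold a loose form of the core of the root hair element. Those printed were picked among the 10 of 14 with a match. The promoters of GSTF14, AT3G20380, BGL2 and AT5G04960 held no match and are not printed. The letters searched were TG and CACG with 4 or 5 bases of any kind between them, on both strands of the 250 bases before the annotated gene start. No base between or around these letters was restricted, so a match need not be a root hair element. They are from the RefSeq assembly TAIR10.1, whose genes were matched to the TAIR10 files by identifier. Capitals mark the matched letters, in either orientation, and each sequence is printed 5′ to 3′ on the gene's strand.

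AT4G08410, an extensin-like gene, chr4:5341210-5341459, minus strand: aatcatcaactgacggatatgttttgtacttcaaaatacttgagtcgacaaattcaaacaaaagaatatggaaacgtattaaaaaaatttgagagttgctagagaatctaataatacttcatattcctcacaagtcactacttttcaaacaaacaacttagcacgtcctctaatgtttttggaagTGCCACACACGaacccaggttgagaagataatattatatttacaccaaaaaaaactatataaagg
EXT6, an extensin gene, chr2:10622146-10622395, plus strand: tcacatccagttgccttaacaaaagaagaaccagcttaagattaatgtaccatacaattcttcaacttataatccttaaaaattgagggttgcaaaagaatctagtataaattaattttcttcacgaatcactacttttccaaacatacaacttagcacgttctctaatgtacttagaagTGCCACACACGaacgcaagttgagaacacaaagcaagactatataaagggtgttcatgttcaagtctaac
EXT13, an extensin gene, chr5:13433901-13434150, plus strand: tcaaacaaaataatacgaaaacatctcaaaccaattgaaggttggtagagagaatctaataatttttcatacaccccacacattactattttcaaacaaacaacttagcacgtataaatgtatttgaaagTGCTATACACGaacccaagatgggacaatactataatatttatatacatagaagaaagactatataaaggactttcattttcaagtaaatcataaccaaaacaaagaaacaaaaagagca
HRGP1, a hydroxyproline-rich glycoprotein gene with 2 matches, chr3:20205878-20206127, plus strand: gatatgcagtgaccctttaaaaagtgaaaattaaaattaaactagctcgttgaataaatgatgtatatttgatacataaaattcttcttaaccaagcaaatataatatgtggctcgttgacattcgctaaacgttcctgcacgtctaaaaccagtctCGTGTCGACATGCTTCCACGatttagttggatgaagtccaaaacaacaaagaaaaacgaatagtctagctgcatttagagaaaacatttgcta
XTH14, a xyloglucan-modifying enzyme gene, chr4:13130041-13130290, plus strand: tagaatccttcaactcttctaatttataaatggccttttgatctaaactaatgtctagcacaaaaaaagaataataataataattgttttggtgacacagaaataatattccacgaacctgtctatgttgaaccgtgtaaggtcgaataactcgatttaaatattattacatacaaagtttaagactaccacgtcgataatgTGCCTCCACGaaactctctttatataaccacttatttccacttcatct
RHS19, a class III peroxidase gene, chr5:26894528-26894777, plus strand: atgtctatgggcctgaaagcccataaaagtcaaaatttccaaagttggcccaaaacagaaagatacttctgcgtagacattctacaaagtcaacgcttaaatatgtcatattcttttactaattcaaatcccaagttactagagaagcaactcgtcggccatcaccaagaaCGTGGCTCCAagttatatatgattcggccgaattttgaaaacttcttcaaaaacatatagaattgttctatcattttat

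The searched letters were in 10 of 14 promoters (71.4%) of the shared higher genes, against 1133 of 12251 (9.25%) of protein-coding genes at 10 CPM or more. EXT11, the remaining higher gene, had no match among protein-coding genes in the annotation. Among the 3 shared lower genes CYP82C4 had a match, centred at base -139.5 from its start. Over all 27443 protein-coding promoters the share was 9.02%. The G-box, CACGTG, was in 1 of the 14 promoters (7.14%) and in 7.53% of those at 10 CPM. A TATA box, TATAAA, was in 10 of 14 (71.4%) and in 45.7%. A match describes letters only, and the near-identical copies among the extensins are not independent promoters.

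**Figure D2:**
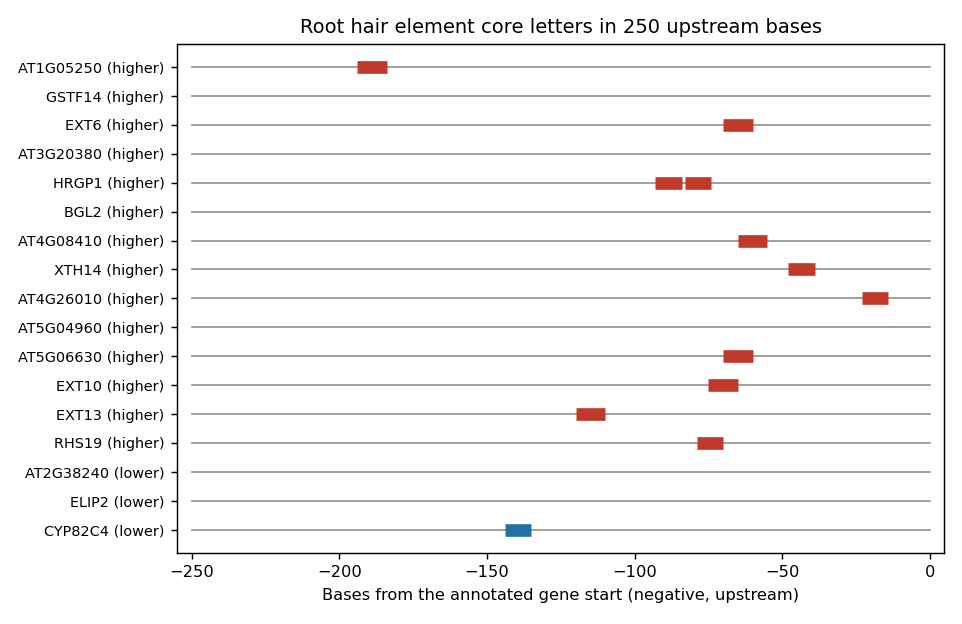
Position of the root hair element core letters in the 250 bases before the annotated start of 17 genes, in bases from the start (x axis), red for genes higher and blue for CYP82C4, lower, in both 3F-VP16 lines. Matches lie in 10 of the 14 higher genes, most of them within 120 bases of the start.

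Among extensins, AT4G08410 had 15.6 CPM in T31-5 and 14.1 CPM in T43-11, against 4.41 CPM in VP16-only at 75 mM. Both lines were thus well above the VP16-only library, with log2 ratios of 1.81 in T31-5 and 1.66 in T43-11 (95% counting interval 1.34 to 2.02). The edgeR quasi-likelihood test of both lines against VP16-only gave 1.75 ± 0.16 (SE; adjusted p = 0.00372). EXT6 (AT2G24980) had 19.0 and 16.9 CPM in T31-5 and T43-11, against 6.01 CPM in VP16-only. HRGP1 (AT3G54590), the most abundant of the 15, had 62.0 and 58.4 CPM in T31-5 and T43-11 and 25.7 CPM in VP16-only. Its log2 fold change was 1.23 ± 0.09 (SE; edgeR adjusted p = 0.00372). The other shared extensins were EXT10 (AT5G06640), EXT11 (AT5G49080), EXT13 (AT5G35190) and AT5G06630, with edgeR log2 fold changes of 1.32, 1.45, 1.65 and 1.54. AT5G06630 and EXT10 are neighbours on chromosome 5, and AT4G08400 and AT4G08410, like AT3G54580 and HRGP1, are similar genes close to each other. The sources used here do not say how the counting split reads between such copies, and the values of single copies are uncertain.

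Of 23 genes in the extensin list 19 were tested. The edgeR test called 11 higher and 0 lower, against 0.136% and 0.121% of all 20645 genes tested. This list and those below were chosen with earlier results of these data known, so their counts are no separate support. The similar copies named above are also not separate calls, since reads may be shared between them. At a mean of 10 CPM 15 extensins remained, of which 7 were 2-fold and 8 were 1.5-fold higher in both lines, where 0.251% of all genes were 1.5-fold higher. Their median log2 ratio was 1.02 in T31-5 and 0.87 in T43-11, against 0.01 and -0.01 over all genes. Those outside the 2-fold rule that passed the test include AT3G54580, at 126 and 114 CPM in T31-5 and T43-11 and 62.3 CPM in VP16-only, the leucine-rich repeat extensin gene LRX1 (log2 fold change 1.37) and EXT12 (1.63). Members of the family also lay on the other side of VP16-only. EXT4 (AT1G76930), its most abundant member, had 1174 and 1519 CPM in T31-5 and T43-11, against 2052 CPM in VP16-only, and did not pass (edgeR adjusted p = 0.614). EXT3 (AT1G21310), which is needed for the embryo's wall, had 1108 and 1063 CPM in T31-5 and T43-11 and 865 CPM in VP16-only (adjusted p = 0.161). With EXT4 included, the summed level of the 23 extensins was 3362 and 3523 CPM in T31-5 and T43-11 and 3644 CPM in VP16-only.

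Among class III peroxidases, AT1G05250 had 13.7 and 13.6 CPM in T31-5 and T43-11, against 4.18 CPM in VP16-only, with a log2 fold change of 1.71 ± 0.16 (SE; edgeR adjusted p = 0.00372). AT4G26010 had 20.3 and 17.7 CPM in T31-5 and T43-11 and 6.47 CPM in VP16-only. RHS19 (AT5G67400), named for root hair expression, had 12.2 and 13.6 CPM in T31-5 and T43-11 and 4.59 CPM in VP16-only. In each of these genes both lines lay about alike and VP16-only lay below them. AT1G05240, next to AT1G05250, and AT3G49960 also passed the test (log2 fold changes 1.41 and 1.51). Of 72 peroxidase genes in the list 62 were tested. The test called 5 higher and 0 lower, against 0.136% and 0.121% of all genes tested. At 10 CPM 34 remained. In both lines 3 of them were 2-fold and 5 of them 1.5-fold higher, against 0.122% and 0.251% of all genes. The median log2 ratio of the 34 was 0.16 in T31-5 and 0.13 in T43-11. AT4G30170, annotated as a peroxidase family protein and not in the list, was at 80.4 and 75.6 CPM in T31-5 and T43-11 and 45.2 CPM in VP16-only (log2 fold change 0.79, edgeR adjusted p = 0.00596); it was noticed after its values were seen.

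Other wall genes stood with them. XTH14 (AT4G25820) had 16.2 and 15.2 CPM in T31-5 and T43-11, against 6.33 CPM in VP16-only (log2 fold change 1.31, edgeR adjusted p = 0.00596). The proline-rich wall protein gene PRP3 (AT3G62680) had 12.2 and 12.6 CPM in T31-5 and T43-11 and 4.27 CPM in VP16-only (1.54, edgeR adjusted p = 0.00596). AT5G04960 had 15.5 and 12.4 CPM in T31-5 and T43-11 and 4.08 CPM in VP16-only, the largest log2 fold change of the 28 genes that passed as higher (1.77). The arabinogalactan protein gene AGP3 passed at 1.56. Of 8 regulators and other wall genes of root hairs 2 passed as higher, XTH14 and PRP3, against 0.136% of all genes tested. These 8 were picked with earlier results of these data known, so their count is no separate support. The regulators themselves were low, with RHD6 at 1.84 and 2.55 CPM in T31-5 and T43-11 and 1.79 CPM in VP16-only, and RSL4 at 1.05 and 1.28 CPM in T31-5 and T43-11 and 0.826 CPM in VP16-only. Neither passed (edgeR adjusted p = 0.915 and 0.887).

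Of 19 genes named as root hair specific 18 were tested. The test called 1 higher, RHS19, and 0 lower, against 0.136% and 0.121% of all genes tested. At a mean of 1 CPM 14 remained, 9 of which were 1.5-fold higher in both lines, where 1.07% of all genes at that level were (0.676% were 1.5-fold lower, and 0.296% and 0.153% were 2-fold higher and lower). PRP1 (AT1G54970) had 3.11 and 3.40 CPM in T31-5 and T43-11 and 0.872 CPM in VP16-only (edgeR adjusted p = 0.0587). RHS12, RHS13 and RHS18 had log2 fold changes of 1.72, 1.41 and 1.84 without passing (edgeR adjusted p = 0.0678, 0.128 and 0.099). The summed level of the 19 was 87.9 and 87.5 CPM in T31-5 and T43-11, against 58.6 CPM in VP16-only. GRF11, a 14-3-3 protein also known as RHS5, made up much of that sum at 30.5 and 32.8 CPM in T31-5 and T43-11 and 32.8 CPM in VP16-only.

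The 7 root markers are given beside these genes, since whole plants were sampled. Of these, RHD6, EXPA7 and SHV2 are also root hair genes. SHV2 (AT5G49270), a COBRA-like protein of hair growth, had 3.90 and 4.68 CPM in T31-5 and T43-11 and 1.93 CPM in VP16-only, the 1 marker that was 1.5-fold higher in both lines. The expansin gene EXPA7 had 5.04 and 5.72 CPM in T31-5 and T43-11 and 3.58 CPM in VP16-only. Neither SHV2 nor EXPA7 passed (edgeR adjusted p = 0.171 and 0.52). PYK10, a root beta-glucosidase, had 2350 and 2113 CPM in T31-5 and T43-11 and 1983 CPM in VP16-only. CASP1, which builds the Casparian strip of the endodermis, had 13.5 and 13.7 CPM in T31-5 and T43-11 and 9.82 CPM in VP16-only. PYK10 and CASP1 did not pass (edgeR adjusted p = 0.691 and 0.309), and the phosphate transporter gene PHT1;1 had 68.1 and 68.4 CPM in T31-5 and T43-11 and 56.9 CPM in VP16-only. The nitrate transporter gene NRT2.1 had 3.07 and 3.59 CPM in T31-5 and T43-11 and 6.06 CPM in VP16-only. The median log2 ratio of the 7 was 0.26 in T31-5 and 0.47 in T43-11. They summed to 2445 and 2212 CPM in T31-5 and T43-11 and 2063 CPM in VP16-only, sums that PYK10 carries almost alone, and the 4 leaf markers to 23531 and 24258 CPM in T31-5 and T43-11 and 23855 CPM in VP16-only. The 5 flower markers summed to 3.20 and 6.24 CPM in T31-5 and T43-11 and 8.99 CPM in VP16-only, and the 4 seed markers to 0.131 and 0.331 CPM in T31-5 and T43-11 and 0.138 CPM in VP16-only. Whether the share of root, or of hair-bearing cells, moved with the wall genes was not tested.

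**Figure D3:**
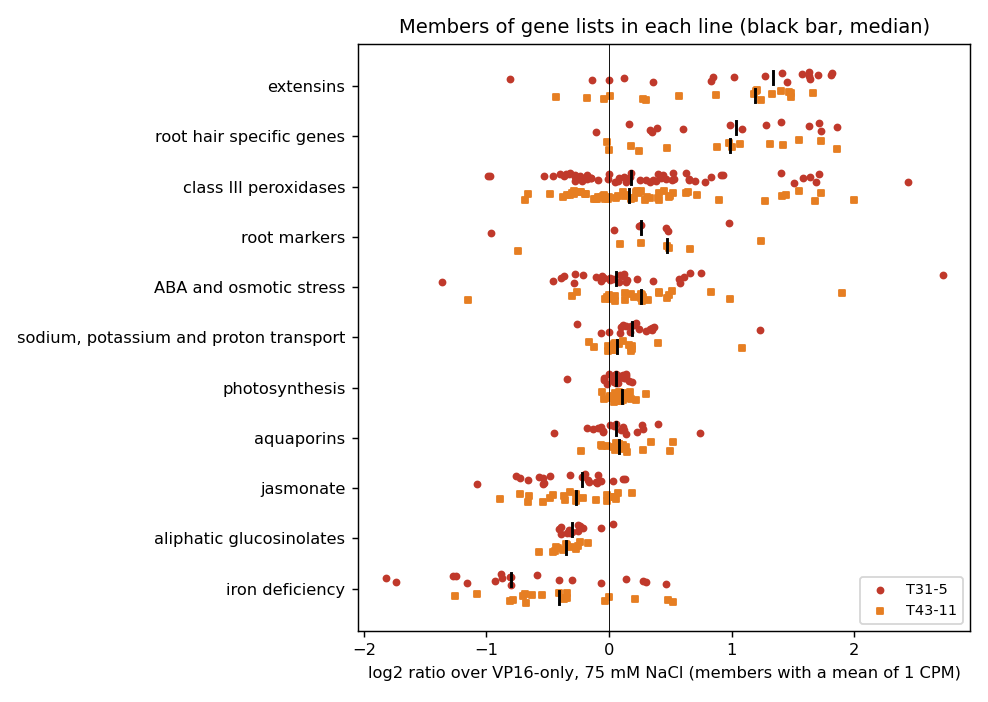
Log2 ratio over VP16-only at 75 mM NaCl of the members of 11 gene lists with a mean of at least 1 CPM, each point a gene, red circles T31-5 and orange squares T43-11, black bars the list medians. Extensin and root hair specific genes lie mostly right of 0 and iron deficiency genes mostly left, with single members on the other side in each.

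In Col-0 at 75 mM, which was not part of the comparison, 14 of the 15 shared higher genes were lower than in the VP16-only line, the exception being BGL2. The share of all genes lower in Col-0 than in VP16-only was not counted, so the 14 of 15 cannot be set against it. The median level of the 15 was 15.6 CPM in T31-5, 14.6 CPM in T43-11, 6.01 CPM in VP16-only and 1.38 CPM in Col-0. AT4G08410 had 1.38 CPM in Col-0, and EXT6 also 1.38 CPM, against 15.6 and 19.0 CPM in T31-5. BGL2 was at 26.8 and 19.3 CPM in T31-5 and T43-11, 9.22 CPM in VP16-only and 22.1 CPM in Col-0, so Col-0 lay with the 3F-VP16 lines for this gene. The VP16-only library itself stood apart from Col-0 at 75 mM, with a mean chi-square per gene of 14.6. Of 12094 genes averaging 10 CPM in these libraries, 147 were 2-fold apart in either direction. How far the VP16-only line differs from Col-0 by its own transgene cannot be told apart from other differences of 1 library.

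**Figure D4:**
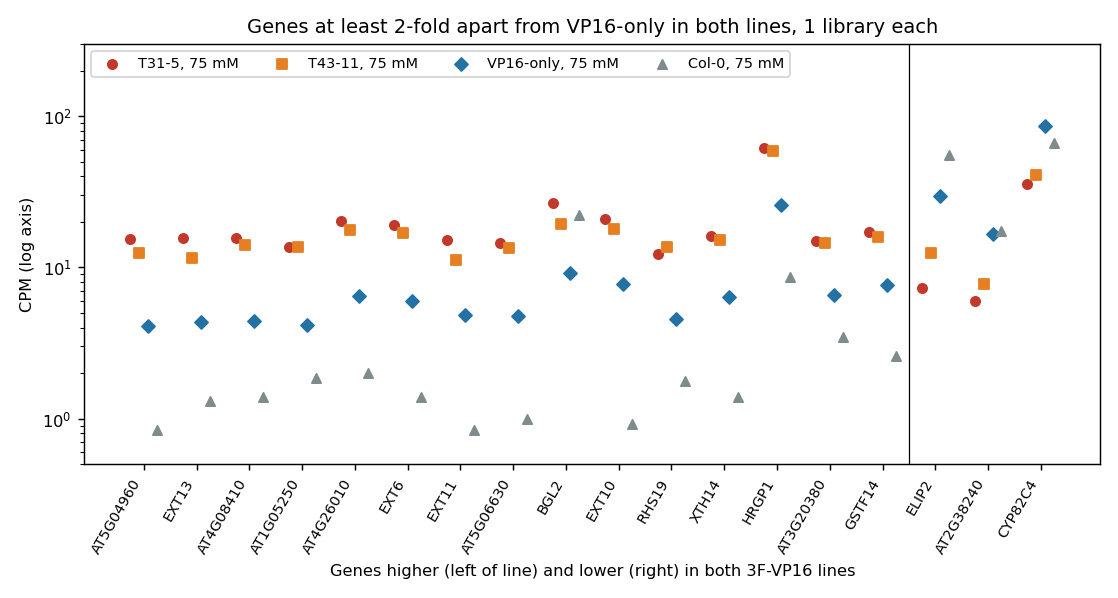
CPM (log axis) at 75 mM NaCl in T31-5, T43-11, VP16-only and Col-0, 1 library each, for the 15 genes higher (left) and the 3 genes lower (right) in both 3F-VP16 lines. Col-0 lies below VP16-only for 14 of the 15 higher genes, and BGL2 is the exception. The share over all genes was not counted.

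At 0 mM the 2 lines parted over all genes, not only in the shared ones. Among genes averaging 10 CPM in the pair of libraries, 0 of 11764 were 2-fold apart between T31-5 and VP16-only. Between T43-11 and VP16-only 547 of 12072 were, counting both directions. All 15 higher genes were within 1.5-fold of the VP16-only line in T31-5, and 11 of them were at least 2-fold higher in T43-11. AT4G08410 had 4.37 CPM in T31-5 and 13.8 CPM in T43-11, against 3.32 CPM in VP16-only at 0 mM, and AT1G05250 had 6.85 and 11.9 CPM in T31-5 and T43-11 and 7.33 CPM in VP16-only. Within lines, EXT6 in T31-5 had 19.0 CPM with salt and 5.98 CPM without, in T43-11 it had 16.9 and 17.1 CPM, in VP16-only 6.01 and 5.83 CPM, and in Col-0 1.38 and 3.34 CPM. The medians of the 15 at 0 mM were 5.98 CPM in T31-5, 13.8 CPM in T43-11, 5.99 CPM in VP16-only and 2.78 CPM in Col-0. The T43-11 library at 0 mM is the one that was close to its own 75 mM library, and the T31-5 library at 0 mM the one close to VP16-only, so these values are given as they stand.

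**Figure D5:**
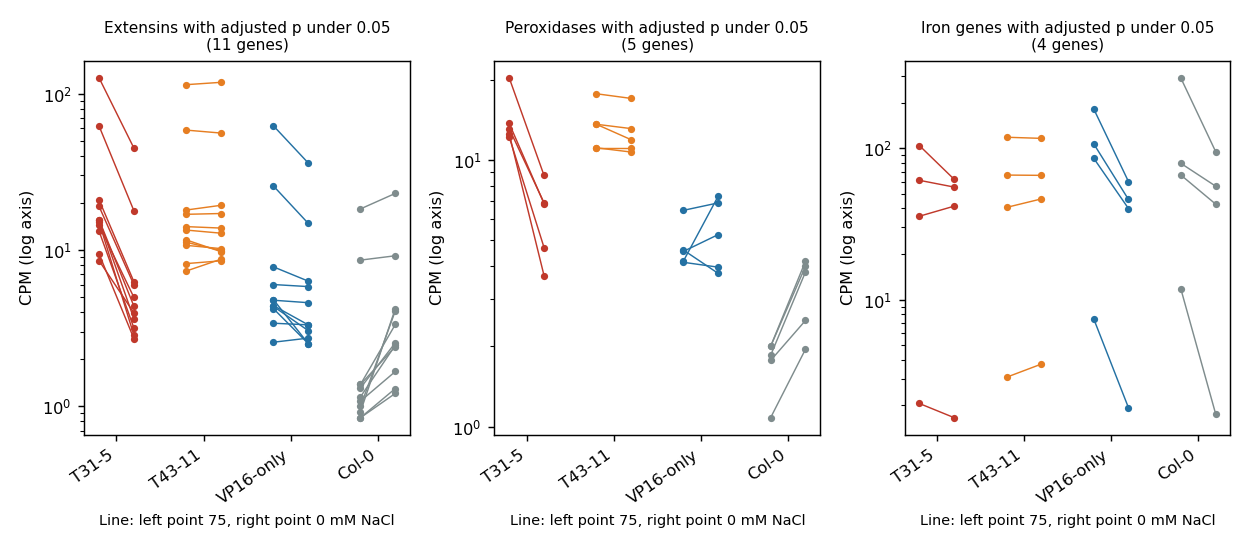
CPM (log axis) at 75 mM (left point) and 0 mM NaCl (right point) in T31-5, T43-11, VP16-only and Col-0 for the 11 extensins, 5 peroxidases and 4 iron deficiency genes that passed the edgeR test, 1 line per gene. The T43-11 points are near level, and in T31-5 the extensins lie higher at 75 mM than at 0 mM.

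Over all genes the edgeR test of both 3F-VP16 lines against VP16-only called 28 genes higher (0.136%) and 25 lower (0.121%) of 20645 at an adjusted p of 0.05. With 2 libraries against 1 the spread comes from the 2 lines alone (1 residual degree of freedom), the VP16-only library is assumed to vary like them, and an exact permutation test could not go below 0.333. Of the 15 shared higher genes 14 passed, the exception being BGL2 (edgeR adjusted p = 0.13), and 2 of the 3 lower genes passed, ELIP2 having an adjusted p of 0.397. A fit on all 6 transgenic libraries called 0 genes in either direction (edgeR, with 103 higher and 84 lower at an unadjusted p under 0.05), and leaving out the T43-11 library at 0 mM gave 25 higher and 16 lower. That omission was chosen after the data were seen. The genes of the next paragraphs rest on the test with 3 libraries.

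Among genes lower in the 3F-VP16 lines, CYP82C4 (AT4G31940), a cytochrome P450 of coumarin synthesis, had 35.5 and 40.6 CPM in T31-5 and T43-11, against 85.9 CPM in VP16-only. Its log2 ratios were -1.27 and -1.08, and its log2 fold change was -1.17 ± 0.10 (SE; edgeR adjusted p = 0.00372). At 0 mM it had 41.4 and 46.2 CPM in T31-5 and T43-11 and 39.9 CPM in VP16-only, and Col-0 had 66.5 CPM with salt, against 42.7 CPM without. At 75 mM T31-5 lay near its own level without salt and VP16-only above its own, while the 2 T43-11 libraries are nearly equal over all genes. FRO2 (AT1G01580), the ferric reductase, had 61.3 and 66.4 CPM in T31-5 and T43-11 and 107 CPM in VP16-only (log2 fold change -0.74, edgeR adjusted p = 0.008). OPT3 (AT4G16370), a transporter that moves iron in the phloem, had 104 and 118 CPM in T31-5 and T43-11 and 182 CPM in VP16-only (-0.71, edgeR adjusted p = 0.0209). The bHLH factor gene bHLH38 (AT3G56970), which acts early in the response, had 2.06 and 3.07 CPM in T31-5 and T43-11 and 7.48 CPM in VP16-only (-1.55, edgeR adjusted p = 0.0498).

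Of 21 iron deficiency genes 19 were tested, and those 4 passed as lower and 0 as higher, against 0.121% and 0.136% of all genes tested. IRT1 (AT4G19690), the ferrous iron transporter, had 82.7 and 98.5 CPM in T31-5 and T43-11 and 145 CPM in VP16-only without passing (edgeR adjusted p = 0.104). FIT (AT2G28160), the master regulator of the response, had 17.7 CPM in T31-5 and 18.5 CPM in VP16-only, with log2 ratios of -0.07 in T31-5 and -0.03 in T43-11. The iron store gene FER4 (AT2G40300) had 30.6 and 34.7 CPM in T31-5 and T43-11 and 24.8 CPM in VP16-only (edgeR adjusted p = 0.313). At 10 CPM 11 members remained, with median log2 ratios of -0.59 in T31-5 and -0.36 in T43-11, and 3 of them were 1.5-fold lower in both lines, against 0.114% of all genes. The summed level was 629 and 697 CPM in T31-5 and T43-11, 972 CPM in VP16-only and 1069 CPM in Col-0 at 75 mM. At 0 mM it was 520 and 692 CPM in T31-5 and T43-11, 501 CPM in VP16-only and 542 CPM in Col-0. AT1G47400, AT1G47395 and AT2G30766, which the annotation describes as uncharacterized, also passed as lower, at log2 fold changes of -1.62, -1.60 and -1.21.

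Lower in the 3F-VP16 lines were also 2 genes of jasmonate synthesis. AOC1 (AT3G25760), an allene oxide cyclase, had 36.1 and 38.1 CPM in T31-5 and T43-11 and 60.1 CPM in VP16-only (log2 fold change -0.69, edgeR adjusted p = 0.0124). LOX2 (AT3G45140), a lipoxygenase, had 749 and 809 CPM in T31-5 and T43-11 and 1109 CPM in VP16-only (-0.51, edgeR adjusted p = 0.0447). Of 24 jasmonate genes 23 were tested, and these 2 passed as lower and 0 as higher, against 0.121% and 0.136% of all genes tested. The 16 at 10 CPM had medians of -0.19 in T31-5 and -0.24 in T43-11. LOX2 had 97.2 and 798 CPM in T31-5 and T43-11 at 0 mM and 95.3 CPM in VP16-only at 0 mM.

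Other genes that passed as lower were WRKY18, a WRKY transcription factor of defence, at 25.7 and 28.7 CPM in T31-5 and T43-11 and 50.5 CPM in VP16-only, and the nitrate transporter gene NRT1.8 at 37.3 and 36.2 CPM in T31-5 and T43-11 and 64.6 CPM in VP16-only. ELI3-2, annotated as cinnamyl alcohol dehydrogenase 8, had 3.07 and 2.93 CPM in T31-5 and T43-11 and 11.5 CPM in VP16-only, and the oxygenase gene AT3G12900 had 1.88 and 2.79 CPM in T31-5 and T43-11 and 10.9 CPM in VP16-only. DREB26 passed at a log2 fold change of -0.67 and the defensin-like gene AT1G13609 at -1.65. AT2G42560, a late embryogenesis abundant protein, had 0 reads in T31-5 and T43-11 at 75 mM, which allows up to 0.131 and 0.142 CPM, and 1.24 CPM in VP16-only. Of the 25 genes that passed as lower, 18 were at least 2-fold higher with salt in Col-0 and 0 at least 2-fold lower, with a median log2 ratio of 1.97 between its 75 and 0 mM libraries. For the 28 that passed as higher these numbers were 2 and 8, with a median of -0.74, and the median over all genes tested was 0.14. The shares of all genes tested that moved 2-fold were not counted. Among 11651 genes averaging 10 CPM in the 2 Col-0 libraries, a stricter filter, 698 were 2-fold apart in either direction. Col-0 has 1 library at each level and gives no replicate check.

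In the list of abscisic acid and osmotic stress 29 of 29 genes were tested, and NAC019 passed as lower, at 2.94 and 3.40 CPM in T31-5 and T43-11 and 7.66 CPM in VP16-only, and 0 as higher, so 1 of 29 genes passed as lower where 0.121% of all genes did. The medians were 0.01 in T31-5 and 0.23 in T43-11 over 20 genes at 10 CPM. RD29A (AT5G52310), induced by drought and salt, had 35.6 and 54.7 CPM in T31-5 and T43-11 and 41.3 CPM in VP16-only. P5CS1, the rate-limiting enzyme of proline synthesis, had 702 and 837 CPM in T31-5 and T43-11 and 699 CPM in VP16-only. SOS1 (AT2G01980), the plasma membrane sodium/proton antiporter, had 38.2 and 34.7 CPM in T31-5 and T43-11 and 33.8 CPM in VP16-only. HKT1 (AT4G10310), which takes sodium out of the xylem, had 3.77 and 2.74 CPM in T31-5 and T43-11 and 2.98 CPM in VP16-only. None of RD29A, P5CS1, SOS1 and HKT1 passed (edgeR adjusted p = 0.973, 0.887, 0.888 and 0.957), which with 1 VP16-only library does not show equal levels. At a mean of 1 CPM 28 genes of the list remained, 1 at least 2-fold higher and 1 lower in both lines. Of 18 genes for sodium, potassium and proton transport 1 was higher and 0 lower. Over all genes at that level these shares were 0.296% and 0.153%, and neither higher gene passed the edgeR test.

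Every list outside those described so far had 0 members that passed the edgeR test in either direction. Those covered salicylic acid and immunity, ethylene, reactive oxygen, photosynthesis, clock, heat shock, cold regulators, ion transport, aquaporins, nutrients, glucosinolates, wax, suberin, expansins, sugar, auxin, cytokinin, cell division, guard cells, senescence and reference genes. Photosynthesis genes had median log2 ratios of 0.06 in T31-5 and 0.10 in T43-11 (26 genes at 10 CPM) and aquaporins 0.07 and 0.07 (16 genes). Aliphatic glucosinolate genes had -0.28 and -0.37 (12 genes), flavonoid genes -0.47 and -0.33 (4 genes), cytokinin response genes 0.46 and 0.16 (5 genes) and auxin response genes 0.34 and 0.09 (8 genes).

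A few genes differed from VP16-only in 1 line alone, defined as at least 2-fold in that line and near VP16-only in the other. AT3G48410 had 22.7 CPM in T31-5 and 5.95 CPM in T43-11, against 6.52 CPM in VP16-only. AT4G25070 and AT3G53980 also stood higher in T31-5, with log2 ratios of 1.26 and 1.24, and AT4G12490 lower, with -1.09. ARP9 (AT5G43500), an actin-related protein, had 11.8 CPM in T31-5 and 28.5 CPM in T43-11 and 12.5 CPM in VP16-only. ARP9 at 0 mM had 12.4 CPM in T31-5, 25.6 CPM in T43-11 and 12.5 CPM in VP16-only. The 2 T43-11 libraries are nearly equal over all genes, as are those of T31-5 and VP16-only at 0 mM. Values at 0 mM are thus no separate check. AT3G48410 at 0 mM had 21.1 CPM in T31-5, 6.86 CPM in T43-11 and 21.8 CPM in VP16-only. Line-specific differences of 1 library have no replicate check. Just outside the 2-fold rule in both lines were the ferric reductase gene FRO4 (log2 ratios 1.82 and 0.91), AT4G07820 (0.88 and 1.03) and AT3G54580 (1.02 and 0.87), and just inside were BGL2 (1.53 and 1.06) and GSTF14 (1.16 and 1.06).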

How the data were processed

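RNA from 8 whole-plant libraries was sequenced, and the tables the authors deposited hold raw counts per gene, 1 table a library. The submitters' processing notes name TopHat2 2.0.5, HTSeq and the TAIR10 build. They give no HTSeq version, annotation release or use of strand, so overlapping and antisense genes cannot be told apart. Summary rows (2.49 to 2.60% of reads) and the added rows T31 and T43 entered neither the library sizes nor the tests. Of 32678 gene rows 31912 (97.7%) matched RefSeq TAIR10.1, which gave symbols, products and promoters.

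Ratios are log2 of CPM over the sum of gene reads with a prior count of 2, for genes averaging 10 CPM or more, called at 2-fold in both lines; CPM of 1 gene are not compared per length with those of another. Tests used the deposited counts in edgeR 4.0.16 (R 4.3.3; TMM, robust quasi-likelihood, Benjamini-Hochberg, threshold 0.05) on 20645 genes reaching 0.459 CPM (10 counts in the median library) in at least 1 of the 3 libraries; the biological coefficient of variation was 5.94%, and SE is the absolute log2 fold change over the square root of F. Counting intervals cover counting error only. The scripts were tested on simulated data. DESeq2 1.42.0, other scalings, filters, folds and sample sets were alternatives. The rest used Python 3.11.15 (pandas 2.3.3, numpy 2.4.6, matplotlib 3.10.9, scipy 1.17.1).

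The lines compared, the 38 gene lists (576 genes; 3 symbols had no match) and the rules were chosen with earlier results of these data known. Extensins and class III peroxidases were listed by RefSeq product or by symbol. The symbols were EXT with a number and HRGP1 for extensins, and RHS18, RHS19, RCI3, PRXCA and PRXCB for peroxidases. Named genes were, at 10 CPM, the 12 in each direction with the largest smaller ratio of both lines, up to 5 per line and direction specific to a line, the 3 in each direction with the smallest edgeR p, and up to 4 per list; other genes named were singled out after their values were seen.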

Additional observations from a re-analysis of the deposited data

Results flagged for a closer look

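FRO2 (AT1G01580) differed from the VP16-only line in opposite directions at the 2 salt levels. At 75 mM it had 61.3 and 66.4 CPM in T31-5 and T43-11, against 107 CPM in VP16-only, a log2 ratio of -0.80 and -0.68. At 0 mM it had 55.3 and 66.1 CPM in T31-5 and T43-11, against 45.8 CPM in VP16-only, a log2 ratio of 0.27 and 0.53. The difference between the salt levels was not tested. The T43-11 library at 0 mM was nearly equal to its 75 mM library over all genes, and the T31-5 library at 0 mM to that of VP16-only (mean chi-square per gene 1.42 and 1.44), so the ratios at 0 mM rest on libraries that stand close to others.

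The added row T31 had reads in libraries of all 3 transgenic lines at 75 mM, 2.94 CPM in T31-5, 27.7 CPM in T43-11 and 3.12 CPM in VP16-only, against 0 reads in Col-0. The added row T43 had 33.6 CPM in T43-11 at 75 mM, against 0 reads in VP16-only and Col-0. The sources used here do not say what these rows stand for.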

How the results depend on the processing

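The 15 higher and 3 lower genes shared by both lines were the same 18 under TMM factors, RLE size factors and prior counts of 0.5 and 5. Against the mean of VP16-only and Col-0 there were 27 higher and 11 lower, 16 of the 18 among them. A mean of 1 CPM gave 56 and 29, a mean of 20 CPM 1 and 1, a fold of 1.5 31 and 14, and a fold of 3 2 and 0. With 1 line left out the counts ranged from 17 to 28 higher and from 3 to 12 lower. The edgeR test, with 28 higher and 25 lower (742 and 804 at an unadjusted p under 0.05), gave 24 and 16 with RLE size factors, 94 and 121 with no filter, and 32 and 18 in DESeq2. With 6 transgenic libraries it gave 0 and 0 (103 and 84 unadjusted), with 8 libraries 0 and 0 (91 and 96 unadjusted), and with 6 libraries and 1 3F-VP16 line left out at 75 mM 0 and 0 (20 to 31 and 13 to 29 unadjusted), where the lone library is assumed to vary like the others. Without the T43-11 library at 0 mM, an alternative chosen after the data were seen, it gave 25 and 16. The fit without that library again takes its spread from the 2 lines at 75 mM alone, so it is no separate check. Among the 296 ratios of named genes, 7 under RLE, 9 under TMM and 185 against the mean with Col-0 moved beyond their counting interval, and 0 changed sign after being called. The cause of these changes was not tested. No paired analysis was possible because VP16-only has 1 library at 75 mM. Depth limits genes near the floor of 3 reads, and the test rests on 1 VP16-only library.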
